A study of Mus musculus with 9 samples.

Results

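The genes described are 35 transcripts that epithelial cells use to adhere to each other, to build keratin filaments and to hold their identity. They were taken by symbol from a fixed list of names, 1 transcript cluster per gene, and all 35 were among the 19505 genes with a named cluster on the array. The tissue was white fat from male mice, 1 Clariom S Mouse array per sample and 9 in all, 3 per group. The wild type group was C57BL/6JHamSlc-+/+ mice given vehicle, the ob/ob vehicle group was leptin-deficient C57BL/6JHamSlc-ob/ob mice given vehicle, and the VE group was ob/ob mice gavaged with an extract (VE) made from the rice bean Vigna umbellata, at 100 mg/kg. All mice were 6 weeks old when obtained, ate standard chow and were treated for 42 days. Each group had 3 mice according to the series text. The fat depot and the vehicle are not given in the sources used here. Values are the deposited log2 signals, so a difference of 1 is a doubling of signal, and levels are compared between arrays for 1 gene at a time. Precision is limited by the number of arrays.

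Epithelial cells form sheets. The cadherin Cdh1 and the adhesion molecule Epcam hold neighbouring cells together, claudins and occludin seal the space between them as tight junctions, and desmosomes tie the keratin filaments of one cell to those of the next. Grainyhead-like, Ovol, Ets-family and p63 transcription factors and the Esrp splicing factors keep cells in that state. Adipocytes, which make up most of the volume of fat, do not form such sheets, whereas ducts, glands, skin and the mesothelial lining of visceral fat do.

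RefSeq promoter windows (assembly GRCm38.p6, 250 bases before to 50 after a start) were at hand for 22 of the 35 genes. They were searched on both strands for CAGGTG, the E-box that the repressors Zeb1, Zeb2, Snai1 and Snai2 are known to bind, read as CACCTG on the other strand. 18 of the 22 genes held it, against 22.6% of all 27025 genes with a window, and the 4 without it were Jup, Krt14, Ovol2 and Spint1. Counted by window, it lay in 22 of 27 member windows, against 20.2% of all 32851. The Grainyhead-like site AACCGGTT was in 0 of the 22 genes, against 0.174% of all genes, and its looser form AACNNGTT, which contains the first, was in Rab25, against 4.77%. The Ets-family core CCGGAAG was in Cldn7 and Spint1, against 9.93%. A match describes letters in a window and not a bound site. The 250 bases before the start follow for 6 genes, 5′ to 3′ along the gene, with the E-box in capitals. These genes give the range seen: 2 matches in Epcam, 1 in each of the paired keratins Krt8 and Krt18, 2 in the second window of Cldn7, 4 in Ap1m2 and 0 in Ovol2.
Epcam (chr17:87635729-87635978, + strand): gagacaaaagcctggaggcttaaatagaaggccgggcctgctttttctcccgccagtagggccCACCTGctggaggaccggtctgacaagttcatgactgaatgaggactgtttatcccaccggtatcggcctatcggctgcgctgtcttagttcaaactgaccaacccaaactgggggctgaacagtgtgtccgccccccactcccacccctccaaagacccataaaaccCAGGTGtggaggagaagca
Krt8 (chr15:102004343-102004592, - strand): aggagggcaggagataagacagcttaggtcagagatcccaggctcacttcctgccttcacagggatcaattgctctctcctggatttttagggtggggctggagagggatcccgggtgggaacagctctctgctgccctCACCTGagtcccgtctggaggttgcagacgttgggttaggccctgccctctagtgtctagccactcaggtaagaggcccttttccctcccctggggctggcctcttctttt
Krt18 (chr15:102027966-102028215, + strand): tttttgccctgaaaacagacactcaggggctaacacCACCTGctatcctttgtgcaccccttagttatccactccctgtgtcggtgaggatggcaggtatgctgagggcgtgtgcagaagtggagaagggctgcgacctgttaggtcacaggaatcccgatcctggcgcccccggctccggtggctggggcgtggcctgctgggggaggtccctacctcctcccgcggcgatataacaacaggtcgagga
Cldn7 (chr11:69965171-69965420, + strand): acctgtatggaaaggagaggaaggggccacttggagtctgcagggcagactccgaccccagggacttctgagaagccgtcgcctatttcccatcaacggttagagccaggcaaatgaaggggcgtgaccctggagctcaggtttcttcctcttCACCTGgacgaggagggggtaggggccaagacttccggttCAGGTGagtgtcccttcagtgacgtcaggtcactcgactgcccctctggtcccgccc
Ap1m2 (chr9:21312334-21312583, - strand): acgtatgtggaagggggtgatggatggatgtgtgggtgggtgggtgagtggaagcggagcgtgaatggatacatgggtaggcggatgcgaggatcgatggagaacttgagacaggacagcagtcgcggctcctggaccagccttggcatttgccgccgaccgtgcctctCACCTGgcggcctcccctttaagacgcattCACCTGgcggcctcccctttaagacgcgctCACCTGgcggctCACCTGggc
Ovol2 (chr2:144331363-144331612, - strand): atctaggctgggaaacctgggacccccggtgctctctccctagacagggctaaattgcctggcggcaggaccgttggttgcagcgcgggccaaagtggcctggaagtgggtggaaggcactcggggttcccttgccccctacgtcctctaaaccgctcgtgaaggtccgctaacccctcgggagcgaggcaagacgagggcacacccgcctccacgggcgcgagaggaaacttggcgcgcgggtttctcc
In Epcam the matches began 187 and 19 bases before the start, and in Ap1m2 they began 81, 51, 21 and 9 bases before it.

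Adipocyte identity was present on every array. All 9 measured adipocyte markers lay above the array median on all 9 arrays, and adiponectin (Adipoq) read between 17.93 and 19.06. The wild type arrays were uneven, and this touches every value below. The median of the adipocyte markers was 15.76 and 15.46 on wild type arrays 1 and 2 and 17.05 on array 3, so that they were lower where the epithelial genes were higher. Array 3 was the highest wild type array for 8 of the 9 adipocyte genes and for all 7 endothelial genes, against 7140 of all 19572 clusters. The mean of arrays 1 and 2 lay below it by a median of −1.22 for the adipocyte and −1.15 for the endothelial genes. On wild type arrays 1, 2 and 3 the median of 8 smooth muscle genes was 12.82, 16.41 and 8.44, against 7.19 to 8.02 on the 6 ob/ob arrays. Of the 8, 2 were called lower in ob/ob vehicle mice, against 5.05% of all clusters. Of the same genes, the summed signal ranged from 13.38 to 19.86 (log2) in wild type, 13.99 to 14.80 in ob/ob vehicle and 13.84 to 14.22 in VE mice. The median of 9 genes of seminal vesicle and prostate was 7.58 on wild type array 3 and 4.09 and 4.32 on arrays 1 and 2, and 0 of the 9 passed against ob/ob vehicle. Their summed signal ranged from 8.18 to 13.35 in wild type, 7.84 to 8.30 in ob/ob vehicle and 7.43 to 7.69 in VE mice. Among 17 epididymal genes 2 were lower and 1 higher in ob/ob vehicle, against 5.05% and 9.02% of all clusters. Their summed signals were 11.07 to 18.76 in wild type, 9.79 to 10.14 in ob/ob vehicle and 9.82 to 10.28 in VE mice. Their median was dim throughout, at 5.21, 5.19 and 4.48 on wild type arrays 1, 2 and 3. It was 4.29 to 4.82 in ob/ob vehicle and 4.12 to 4.55 in VE mice. The difference from ob/ob vehicle was below 0 for 11 genes and above 0 for 6, among them Pemt (0.89, the gene called higher), Spag11b (1.58) and Gpx5 (1.04). Cuzd1, of this list, read 10.30, 18.19 and 12.52 on the wild type arrays and 4.12 to 5.08 on the others, a difference of −8.74 (adjusted p = 0.00390 by limma), beside −7.25 for Cdh1. Adam7, made in the epididymis, read 5.21, 17.10 and 7.46 against 3.96 to 4.93 and did not pass (adjusted p = 0.157). The median of 8 male germ cell genes was 7.45, 7.12 and 5.36 on wild type arrays 1, 2 and 3, the array order of the epithelial genes, against 4.67 to 6.03 in ob/ob vehicle and 4.18 to 4.72 in VE mice. Of these 8 genes 0 passed against ob/ob vehicle and 5 were lower in VE, where 7.58% of all clusters were called lower. Summed signals of the 8 were 8.51 to 14.11 in wild type, 7.82 to 9.54 in ob/ob vehicle and 7.59 to 7.75 in VE mice. Of 11 macrophage genes all 11 were higher in ob/ob vehicle, against 9.02% of all clusters. Their summed signals were 19.21 to 20.09 in ob/ob vehicle, 12.18 to 14.04 in wild type and 19.38 to 19.83 in VE mice. The part of these cell types in the results was not tested. In whole tissue, fewer cells of a type and less RNA per cell cannot be told apart.

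The first comparison asked how fat of obese, vehicle-treated ob/ob mice differed from that of lean mice. Of the 35 epithelial genes, 23 were lower in ob/ob vehicle fat, 0 were higher and 12 did not pass. Over all 19572 clusters tested, 5.05% were called lower and 9.02% higher. A call is an adjusted p under 0.05 by limma, with Benjamini-Hochberg adjustment over all clusters. The SE pools the spread of all 3 groups. Wild type SD exceeded ob/ob vehicle SD for 29 of the 35 genes, against 12680 of all 19572 clusters. For genes as uneven in wild type as Cdh1 (SD 2.23, against 0.13 in ob/ob vehicle), pooling lowers the SE. With only the 2 groups compared, Cldn4 (adjusted p = 0.061 by limma) and Trp63 (0.0582) were no longer called. At an unadjusted p under 0.05, 29 of the 35 differed, against 28.4% of all clusters. The median difference over the 35 genes was −2.88 on the log2 scale, against −0.04 over all clusters, and 22 of the 23 were more than 4-fold lower. The difference was below 0 for all 35 genes. On the 3 ob/ob vehicle arrays the median of the list was 4.77 to 4.89, and on wild type arrays 1, 2 and 3 it was 8.34, 8.33 and 6.63. On each of the 6 ob/ob arrays 26 of the 35 genes stayed below the array median, where signal is dim, against 8870 of all 19572 clusters. Of these 26 genes, 11 were above the array median on every wild type array, a count that was not made over all clusters. Detection calls were not used here, so the folds of these genes have no known floor.

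**Figure D1:**
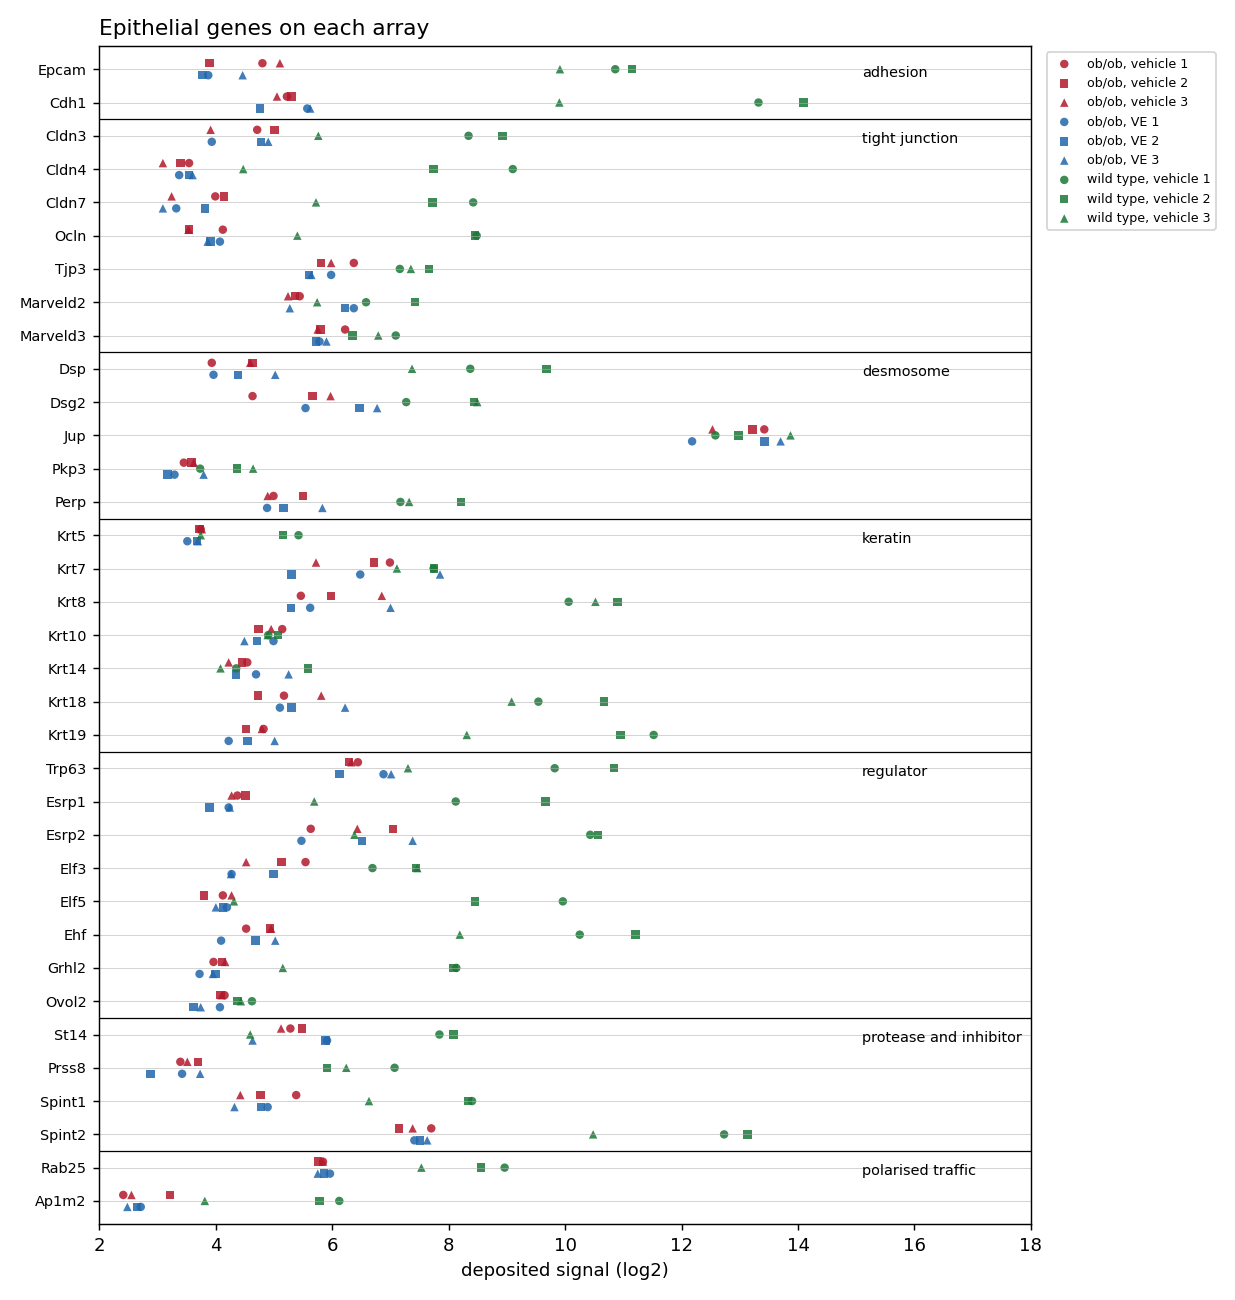
Deposited log2 signal (horizontal axis) of each of the 35 epithelial genes (rows, grouped by role) on the 9 arrays; colour gives the group and shape the replicate number. Wild type points lie to the right of all ob/ob points for most genes, as for Epcam at 9.91 to 11.15 against 3.77 to 5.10, and wild type array 3 (triangle) often lies between the other wild type arrays and the ob/ob arrays.

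Both adhesion genes fell. Cdh1, the cadherin of adherens junctions, read 13.32, 14.09 and 9.90 on wild type arrays 1 to 3, against 5.22, 5.30 and 5.05 in ob/ob vehicle mice. Its VE arrays read 5.57, 4.76 and 5.62. Wild type levels therefore did not overlap those of either ob/ob group, but array 3 was 3.80 below the mean of arrays 1 and 2. The difference from ob/ob vehicle was −7.25 ± 0.85 (SE, n = 3; adjusted p = 4.39e-04 by limma), or 152-fold, the largest among the 35. Epcam, which supports contact between epithelial cells, read 10.86, 11.15 and 9.91 in wild type, 4.80, 3.89 and 5.10 in ob/ob vehicle and 3.87, 3.77 and 4.46 in VE mice. This gene was even across the wild type arrays, with an SD of 0.65, and the groups were far apart. The difference from ob/ob vehicle was −6.04 ± 0.40 (SE, n = 3; adjusted p = 2.10e-05 by limma), the smallest adjusted p of the list.

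Of 7 tight junction genes 5 fell, 0 rose and 2 did not pass. The claudins form the seal itself. Cldn4 read 9.10, 7.74 and 4.47 in wild type and 3.54, 3.39 and 3.09 in ob/ob vehicle mice, a difference of −3.76 ± 0.89 (SE, n = 3; adjusted p = 0.0195 by limma). Its neighbour on the chromosome, Cldn3, read 8.34, 8.92 and 5.76 against 4.71, 5.01 and 3.91, at −3.13 ± 0.70 (adjusted p = 0.0149 by limma). In both, wild type array 3 lay nearer to the ob/ob arrays than to wild type arrays 1 and 2. Cldn7 differed by −3.50 ± 0.59 and occludin (Ocln), a membrane-spanning partner of claudins, by −3.71 ± 0.68. The scaffold Tjp3, on the inner side of the junction, was lower by a smaller amount but evenly: 7.16, 7.66 and 7.35 in wild type against 6.37, 5.81 and 5.98, or −1.34 ± 0.25 (adjusted p = 0.00565 by limma). The genes of tricellulin (Marveld2, −1.23 ± 0.42; adjusted p = 0.0829 by limma) and of Marveld3 (−0.82 ± 0.25; adjusted p = 0.0580) did not pass, although Marveld2 lies next to Ocln. Leaving out 1 array ended the call of Cldn4 (ob/ob vehicle array 1, 2 or 3 or wild type array 2) and that of Cldn3 (ob/ob vehicle array 3 or wild type array 1), with the highest adjusted p by limma at 0.0660 and 0.0611. With wild type array 2 left out Marveld3 passed (−1.02; adjusted p = 0.0304 by limma), and with array 3 left out Marveld2 did (−1.65; 0.0123).

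Of 5 desmosomal genes 3 fell and 2 did not pass. Desmoplakin (Dsp), which links the plaque to keratin, read 8.37, 9.68 and 7.37 in wild type and 3.93, 4.63 and 4.59 in ob/ob vehicle mice, at −4.09 ± 0.52 (SE, n = 3; adjusted p = 7.07e-04 by limma). Perp, a membrane protein of desmosomes, differed by −2.44 ± 0.35, and the desmosomal cadherin Dsg2 by −2.64 ± 0.47. Plakoglobin (Jup) stood apart from these. Plakoglobin also belongs to junctions of cells that are not epithelial, and its signal was 12.58, 12.98 and 13.87 in wild type, 13.42, 13.22 and 12.53 in ob/ob vehicle and 12.18, 13.42 and 13.70 in VE mice. The groups overlapped fully, and the difference was −0.09 with a 95% interval of −1.11 to 0.93 (adjusted p = 0.927 by limma). Plakophilin 3 (Pkp3) was dim, at 3.73, 4.36 and 4.64 against 3.45, 3.58 and 3.62, and did not pass (−0.69 ± 0.28; adjusted p = 0.137). With wild type array 1 left out it passed (−0.95; adjusted p = 0.0451 by limma). Wild type array 3 was the highest wild type array for 4 of the 35 genes, against 7140 of all 19572 clusters. Of these 4 genes, 3 were the desmosomal Dsg2, Jup and Pkp3.

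Among 7 keratins the 3 that fell were those of simple, single-layered epithelium. Krt8 and Krt18 pair into 1 filament and lie side by side in the genome. Krt8 read 10.06, 10.90 and 10.52 in wild type and 5.46, 5.98 and 6.85 in ob/ob vehicle mice, at −4.40 ± 0.48 (SE, n = 3; adjusted p = 2.88e-04 by limma). Krt18 read 9.54, 10.67 and 9.08 against 5.17, 4.72 and 5.81, at −4.53 ± 0.46 (adjusted p = 1.86e-04). Both partners were thus high on all 3 wild type arrays and differed by like amounts. Krt19, a keratin of ducts, read 11.52, 10.95 and 8.31 against 4.82, 4.52 and 4.79, at −5.55 ± 0.67 (adjusted p = 5.01e-04 by limma). Krt7, also of simple epithelium, read 7.74, 7.75 and 7.11 against 6.99, 6.72 and 5.72 and did not pass (−1.06 ± 0.57; adjusted p = 0.267). The keratins of stratified epithelium did not pass either. Krt14, of the basal layer, read 4.35, 5.58 and 4.08 in wild type and 4.54, 4.45 and 4.22 in ob/ob vehicle mice, and Krt10, of the layers above it, differed by −0.01 with a 95% interval of −0.51 to 0.49. Krt5, the basal partner of Krt14, read 5.42, 5.15 and 3.74 against 3.74, 3.72 and 3.76, so that wild type array 3 equalled the ob/ob level (−1.03 ± 0.38; adjusted p = 0.105 by limma). It passed without that array (−1.54; adjusted p = 0.00122).

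Of 8 regulators 5 fell, 0 rose and 3 did not pass. Ehf, an Ets-family factor of epithelium, read 10.25, 11.21 and 8.19 in wild type and 4.52, 4.93 and 4.95 in ob/ob vehicle mice, at −5.08 ± 0.62 (SE, n = 3; adjusted p = 5.50e-04 by limma). Its genomic neighbour Elf5, a factor known from mammary and other glands, read 9.96, 8.45 and 4.31 against 4.12, 3.80 and 4.27. Elf5 on wild type array 3 thus stood beside the highest ob/ob vehicle array, and with that spread the difference did not pass (−3.51 ± 1.09; adjusted p = 0.0593). The third Ets-family member, Elf3, went the other way among the wild type arrays, at 6.69, 7.44 and 7.46 against 5.54, 5.13 and 4.52, and fell by 2.13 ± 0.35 (adjusted p = 0.00286 by limma). Grhl2, which keeps junction genes active, read 8.13, 8.08 and 5.15 against 3.96, 4.11 and 4.16, at −3.04 ± 0.65 (adjusted p = 0.0121). The splicing factor Esrp1 read 8.12, 9.66 and 5.69 against 4.37, 4.51 and 4.27, at −3.44 ± 0.76 (adjusted p = 0.0138). The related Esrp2 read 10.43, 10.56 and 6.38 against 5.63, 7.04 and 6.43 and did not pass (−2.76 ± 0.99; adjusted p = 0.0961). Trp63, which encodes the basal-cell factor p63, read 9.82, 10.84 and 7.30 against 6.44, 6.29 and 6.33, at −2.97 ± 0.71 (adjusted p = 0.0208 by limma). Without any 1 of the 3 ob/ob vehicle arrays, or without wild type array 1, the Trp63 call ended (highest adjusted p 0.0716 by limma). Without wild type array 3, Elf5 (−5.14; adjusted p = 1.54e-05 by limma) and Esrp2 (−4.13; adjusted p = 4.74e-04) passed. Ovol2 was dim on all arrays, from 3.62 to 4.62, and did not pass (−0.36 ± 0.21; adjusted p = 0.305).

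Of 4 surface proteases and protease inhibitors 3 fell and 1 did not pass. Matriptase (St14) and prostasin (Prss8) are membrane-bound proteases that mature the epithelial barrier, and Spint1 and Spint2 inhibit them. Spint2 read 12.73, 13.13 and 10.48 in wild type and 7.70, 7.15 and 7.38 in ob/ob vehicle mice, at −4.70 ± 0.56 (SE, n = 3; adjusted p = 4.80e-04 by limma). Spint1 differed by −2.93 ± 0.46 and Prss8 by −2.88 ± 0.33 (adjusted p = 3.91e-04). St14 did not pass (−1.54 ± 0.78; adjusted p = 0.234), for on wild type array 3 it read 4.59, below every ob/ob vehicle array at 5.28, 5.48 and 5.12, and on arrays 1 and 2 it read 7.84 and 8.08. Without that array it passed (−2.67; adjusted p = 8.99e-04 by limma). Both genes of polarised membrane traffic fell. The recycling GTPase Rab25 read 8.96, 8.55 and 7.53 against 5.84, 5.75 and 5.84, at −2.54 ± 0.33 (adjusted p = 7.98e-04), and the clathrin adaptor subunit Ap1m2 read 6.12, 5.78 and 3.81 against 2.41, 3.21 and 2.55, at −2.51 ± 0.52 (adjusted p = 0.00992).

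**Figure D2:**
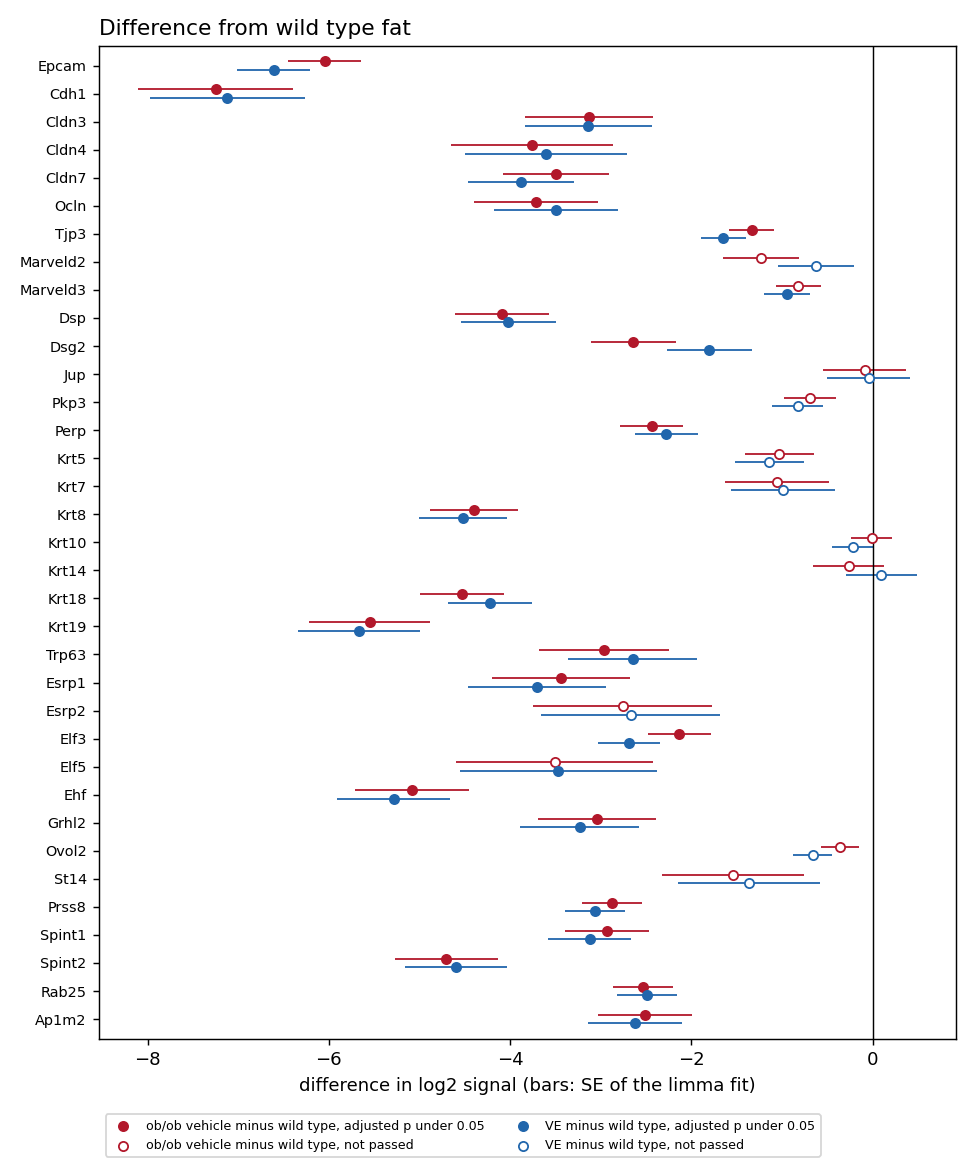
Difference in log2 signal from wild type fat (horizontal axis) for each of the 35 genes (rows), for ob/ob vehicle in red and VE in blue; bars are the SE of the limma fit and filled points passed an adjusted p of 0.05. The red and blue points of a gene lie at most 0.84 apart, for Dsg2 at −2.64 and −1.80. Of the points, 23 red and 25 blue are filled, all left of 0. Both comparisons use the same wild type arrays.

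The wild type arrays did not carry these genes evenly. Array 3 was the lowest of the 3 for 25 of the 35 genes, against 31.3% of all clusters. Arrays 1 and 2 both lay at least 1 log2 unit above array 3 for 18 of the 35, against 3.64% of all clusters. Array 3 nevertheless exceeded all 6 ob/ob arrays for 28 genes, against 26% of all clusters, and all 3 wild type arrays did so for 26, against 9.81%. The 7 genes in which array 3 did not exceed them were Marveld2, Krt5, Krt7, Krt10, Krt14, Esrp2 and St14. Relative to the mean of the 6 ob/ob arrays, the median excess was 3.60 for the mean of arrays 1 and 2 and 1.44 for array 3.

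The excess of arrays 1 and 2 over array 3 is given here by role, with no test between roles. For the 8 regulators the mean of arrays 1 and 2 exceeded array 3 by a median of 2.99, for the 7 tight junction genes by 2.35 and for the 7 keratins by 0.89. For the 5 desmosomal genes it was below array 3 by a median of −0.59. Of the desmosomal genes that fell, the excess was 1.655 for Dsp, 0.37 for Perp and −0.64 for Dsg2. Of those that did not pass, it was −1.09 for Jup and −0.595 for Pkp3. Krt8 stood 4.45 above the ob/ob mean on arrays 1 and 2 and 4.49 on array 3. Esrp2, at 4.08 on arrays 1 and 2, stood at −0.03 on array 3, and Elf5 at 5.12 and 0.23. Genes with a like excess on arrays 1 and 2 therefore ranged on array 3 from none to a full share. When wild type arrays 1 and 2 were both left out, 1 wild type array remained, whose spread was assumed to be that of the other groups; then 20 of the 35 were called lower and the median difference was −1.30. There Cldn3 (−1.22; adjusted p = 0.164 by limma), Trp63 (−0.95; 0.155) and Ap1m2 (−1.09; 0.0917) were no longer called, and Epcam (−5.31), Krt8 (−4.42) and Krt18 (−3.85) were.

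**Figure D3:**
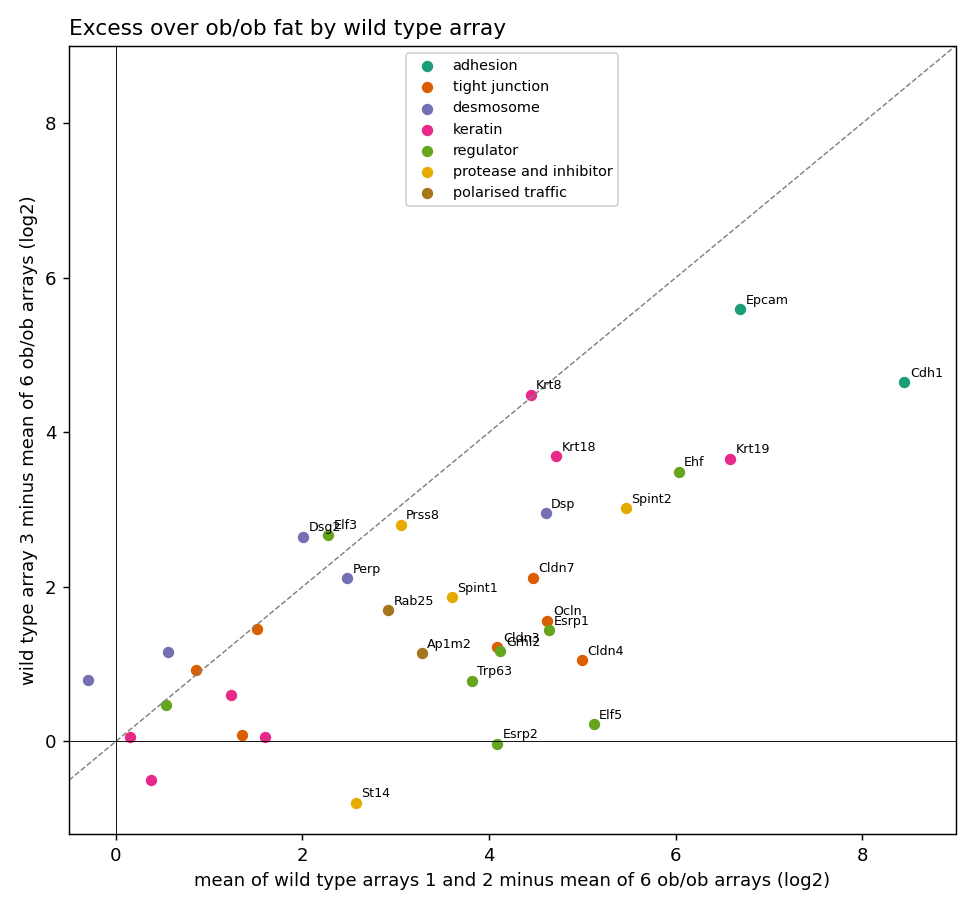
For each of the 35 genes, the mean of wild type arrays 1 and 2 minus the mean of the 6 ob/ob arrays (horizontal axis, log2) against the same for wild type array 3 (vertical axis, log2); colour gives the role and the dashed line marks equality. Krt8 (4.45 and 4.49) lies on the line, while Elf5 (5.12 and 0.23), Esrp2 and St14 lie near or below 0 on the vertical axis.

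Other epithelial genes were read from lists of the same families. Over all clusters, 5.05% were called lower and 9.02% higher in ob/ob vehicle mice. Of 16 other claudins 5 were lower in ob/ob vehicle mice, compared with wild type, and 1 was higher. Cldn22 (−2.62) and Cldn1 (−2.74) had the lowest t, and Cldn1 read 7.68, 10.16 and 8.57 on the wild type arrays. Cldn15 rose by 1.66 (adjusted p = 0.0158 by limma), and Cldn19 did not pass, at 0.10. Of 14 other junction and polarity genes 8 were lower and 0 higher. The polarity scaffold Patj (−3.69) and the junctional adhesion molecule F11r (−2.07) had the lowest t values, and Cdh2 (0.32) and Cgnl1 (0.49), which had the highest, did not pass.

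Of 14 other keratins 0 passed in either direction between ob/ob vehicle and wild type mice by limma, and the lowest t belonged to Krt20 (−0.72; adjusted p = 0.111) and Krt1 (−0.79; 0.153) and the highest to Krt80 (0.97; 0.200) and Krt79 (0.90; 0.0844). Over all clusters 14.1% passed in either direction. Of these 14 keratins, 3 had an unadjusted p under 0.05, against 28.4% of all clusters. Against wild type, Krt79 was higher in VE mice (1.63 ± 0.31; adjusted p = 0.00563 by limma), the only one of the 14 called there. Of 12 other genes of desmosomes and the cornified envelope 3 were lower and 1 higher in ob/ob vehicle mice, against 5.05% and 9.02% of all clusters. Those lower included Lad1 (−1.23) and Pkp1 (−0.90). Pkp2, a plakophilin also found in heart and other non-epithelial tissue, rose by 0.98 (adjusted p = 0.0234 by limma), while Dsc3 did not pass (0.21).

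Of 11 other epithelial regulators 3 were lower in ob/ob vehicle mice. Over all clusters 5.05% were called lower, the share for each list of this paragraph. Pax8, a factor of kidney, thyroid and genital ducts, read 12.26, 12.61 and 9.23 in wild type and 3.72, 4.08 and 4.88 in ob/ob vehicle mice, and Pax2, of kidney and genital ducts, read 10.45, 10.77 and 6.29 against 3.23, 3.35 and 3.25. Both thus had array 3 lowest of the wild type arrays and above every ob/ob array, as for Cdh1. This order was not general. Among the 16 other claudins array 3 was lowest of the wild type arrays for 4 and highest for 8. Among these 11 regulators it was lowest for 7 and highest for 2. Spdef (−0.07) and Cdx2 (0.54) had the highest t and did not pass. Of 13 other proteases, inhibitors and channel subunits of epithelium 3 were lower, among them Tmprss2 (−2.80) and the sodium channel subunit Scnn1a (−2.62), and Tmprss4 (0.17) and Scnn1b (0.20) did not pass. Scnn1a read 6.53, 8.34 and 9.67 on the wild type arrays, highest on array 3. Of 16 other traffic and surface genes 8 were lower and 0 higher, led by Prom1 (−7.63) and the cortical linker ezrin (Ezr, −3.98), while Vil1 (−0.62) and Fxyd3 (−0.42) did not pass.

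Mesenchymal genes were read as well. Of 8 measured mesenchymal regulators and marker genes 0 were lower in ob/ob vehicle mice and 2 were higher, where 9.02% of all clusters were called higher. These 2 were the homeobox factor Prrx1 at 5.06 (adjusted p = 6.97e-05 by limma) and the filament gene Vim at 3.17 (5.99e-04). The repressors Zeb1 (−0.99; adjusted p = 0.114 by limma), Snai2 (−0.33; adjusted p = 0.522) and Snai1 (0.55; adjusted p = 0.429) did not pass. Zeb2, of the same list, had no named cluster here. Zeb1 read 11.45, 12.77 and 12.60 in wild type and 10.76, 11.41 and 11.67 in ob/ob vehicle mice.

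Markers of other epithelia were read in ob/ob vehicle against wild type mice, where 5.05% of all clusters were called lower. Of 7 mammary genes 1 was lower, of 7 skin keratinocyte genes 1, of 8 kidney tubule genes 2 and of 5 urothelial genes 0, counts too small to set against that share. The skin gene was Calml3, at 6.10, 10.02 and 10.90 in wild type and 4.01, 4.04 and 4.31 in ob/ob vehicle mice (−4.89 ± 0.95; adjusted p = 0.00764 by limma). The kidney genes were the endocytic receptor Lrp2, at 6.79, 11.32 and 10.46 against 4.72, 3.21 and 5.28 (−5.12 ± 1.08; adjusted p = 0.0112), and the water channel Aqp2 (−1.18 ± 0.27). Both Calml3 and Lrp2 were lowest on wild type array 1, unlike most of the 35 genes. The mammary gene was Glycam1 (−1.02 ± 0.26). The summed signal of the kidney list was 8.21 to 11.41 in wild type, 7.06 to 7.43 in ob/ob vehicle and 7.07 to 7.60 in VE mice, and that of the skin list was 8.44 to 11.05, 7.45 to 7.70 and 7.46 to 7.98. Their part in the results was not tested. The array medians of the mammary, skin and urothelial lists in wild type mice were 4.62 to 4.97, 4.79 to 5.16 and 4.12 to 5.05, and on the ob/ob vehicle arrays 4.26 to 4.71, 4.04 to 4.68 and 4.22 to 4.51. Of 9 mesothelial genes 0 passed, and their median was 6.75, 7.19 and 6.67 in wild type, 7.59, 5.52 and 6.78 in ob/ob vehicle and 6.69, 4.77 and 7.74 in VE mice, so the 3 groups overlapped. Summed signals of the mesothelial genes were 10.34 to 11.10, 9.44 to 11.76 and 8.63 to 12.55.

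**Figure D4:**
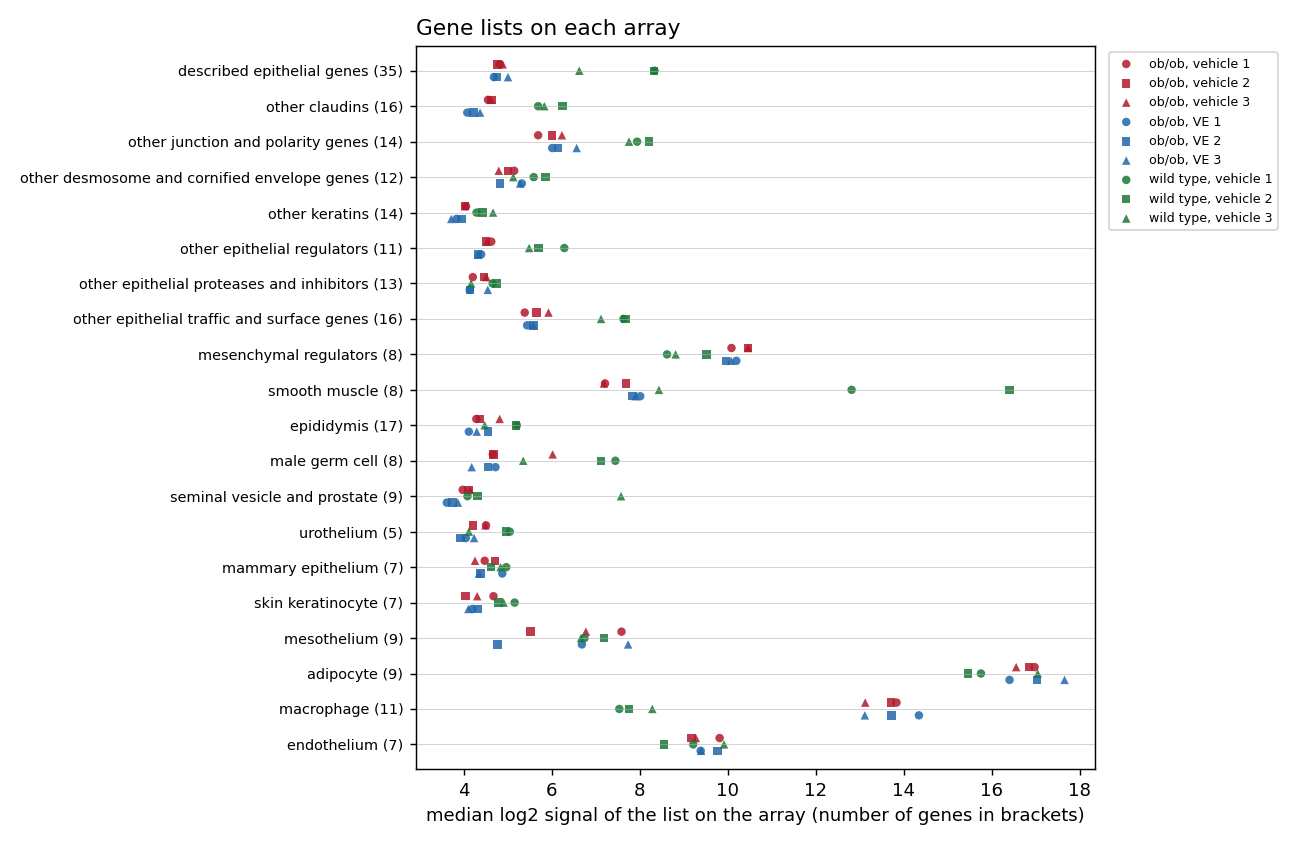
Median log2 signal of each gene list (rows, number of measured genes in brackets) on the 9 arrays (horizontal axis); colour gives the group and shape the replicate number. The described epithelial genes read 8.34, 8.33 and 6.63 on the wild type arrays and 4.69 to 5.01 on the ob/ob arrays, smooth muscle genes are high on wild type arrays 1 and 2, and seminal vesicle and prostate genes on wild type array 3.

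The second comparison set VE-treated ob/ob mice against the same wild type arrays. 25 of the 35 genes were lower in VE, 0 were higher and 10 did not pass, where 7.58% of all clusters were called lower and 12.4% higher. At an unadjusted p under 0.05, 29 of the 35 differed, against 33.9% of all clusters. The median difference was −2.69, against −0.07 over all clusters. Since both comparisons share the wild type arrays, their likeness is not independent support. 23 genes were lower in both ob/ob groups, against 4.3% of all clusters, and the 2 called against VE but not against ob/ob vehicle were Marveld3 (−0.94; adjusted p = 0.0263 by limma) and Elf5 (−3.47; adjusted p = 0.0486). Neither is shown to differ between the ob/ob groups. For Marveld3 the VE minus ob/ob vehicle difference was −0.12 with a 95% interval of −0.69 to 0.44, and for Elf5 it was 0.04 with an interval of −2.38 to 2.46. Leaving out any single array other than wild type array 3 ended the Elf5 call (adjusted p up to 0.133 by limma). Other calls in this comparison also ended without 1 array. They were those of Trp63 (wild type array 1 or 2 or any VE array; adjusted p up to 0.0970 by limma), Marveld3 (wild type array 1 or any VE array; 0.0869) and Cldn4 (any VE array; 0.0634). The call of Dsg2 ended without wild type array 2 or VE array 1 or 2 (up to 0.0903) and that of Cldn3 without VE array 1 (0.0522). Fitting only the VE and wild type arrays ended the calls of Cldn4 (adjusted p = 0.0553 by limma), Marveld3 (0.0506), Trp63 (0.0707) and Elf5 (0.107). The largest differences belonged to Cdh1 (−7.12), Epcam (−6.61), Krt19 (−5.67) and Ehf (−5.29).

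The third comparison asked what the extract changed in ob/ob fat. None of the 35 genes passed between VE and ob/ob vehicle mice by limma, and 0 had an unadjusted p under 0.05, where 0.0255% of all clusters passed (5 clusters, all higher in VE) and 4.56% had an unadjusted p under 0.05. The median difference was −0.01, with 18 genes below 0 and 17 above. The largest differences were those of Dsg2 (0.84; 95% interval −0.20 to 1.88) and Marveld2 (0.61; −0.33 to 1.55) upward and Epcam (−0.56; −1.46 to 0.34) and Elf3 (−0.56; −1.33 to 0.21) downward. Dsg2 read 5.54, 6.47 and 6.77 in VE mice, against 4.63, 5.66 and 5.97 without the extract, and the groups overlapped. VE arrays lay on one side of all ob/ob vehicle arrays for Krt5, Esrp1 and Ovol2, that is for 3 of the 35, against 12.6% of all clusters.

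Intervals were wide where wild type arrays were uneven, because the 3 groups share 1 estimate of the spread. For Tjp3 the interval of the difference was −0.86 to 0.24 and for Krt10 −0.71 to 0.29, so a change of 2-fold is outside both. For Cdh1 it was −1.78 to 2.03, which leaves changes of more than 2-fold in either direction within the interval. Within the VE group, array 3 was the highest of the 3 for 22 of the 35 genes, against 30.8% of all clusters. Krt7 read 6.48, 5.30 and 7.85 there, Krt8 5.62, 5.29 and 7.0 and Krt18 5.10, 5.30 and 6.22. The mesothelial list was also highest on that array and lowest on VE array 2, as given above, and its part in these keratin values was not tested. Without VE array 3 the median difference of the 35 genes was −0.17.

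**Figure D5:**
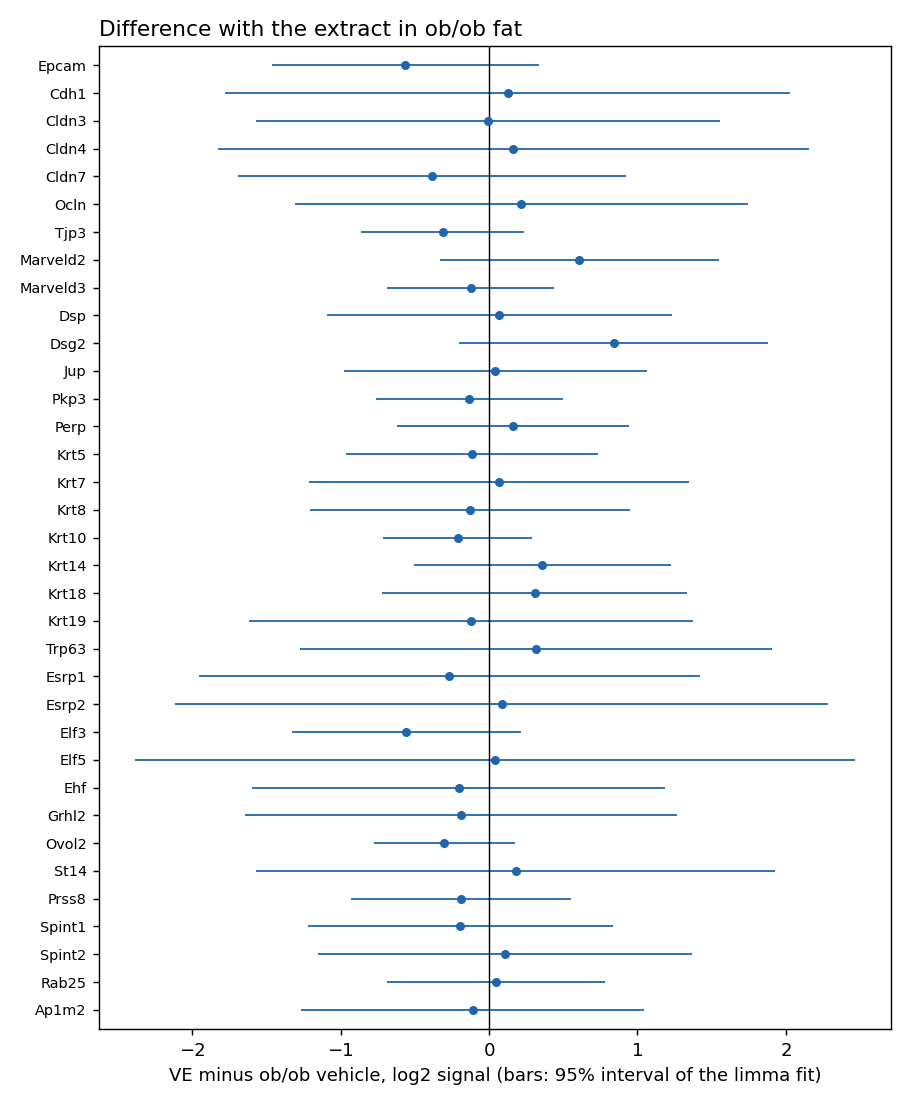
Difference in log2 signal between VE and vehicle-treated ob/ob fat (horizontal axis) for each of the 35 genes (rows), with the 95% interval of the limma fit. Every interval includes 0, the points lie between −0.56 (Epcam) and 0.84 (Dsg2), and the intervals run from −2.38 to 2.46 for Elf5.

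Some of the 35 genes lie next to each other in the RefSeq annotation, with no other protein-coding gene between them: Cldn4 and Cldn3, Ehf and Elf5, Krt8 and Krt18, and Ocln and Marveld2. Krt8 (−4.40) and Krt18 (−4.53) had differences within 1 SE of each other, as had Cldn4 (−3.76) and Cldn3 (−3.13). The other 2 pairs were less alike. Ehf stood 3.49 above the ob/ob mean on wild type array 3 and Elf5 0.23, and Ocln stood 1.56 above it and Marveld2 0.09. Krt19 and Krt14 have 1 protein-coding gene between them, and Krt19 was lower by −5.55 while Krt14 did not pass at −0.27. Position was described after these values were known, and no test was made of it.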

How the data were processed

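RNA of 9 white adipose samples was hybridised to Clariom S mouse arrays. Per the labels' protocols and the series text, the authors summarised and normalized the arrays in Transcriptome Analysis Console 4.0.2 (SST-RMA), and the deposited values are log2 signals per transcript cluster. The genome build and annotation behind the clusters are not given in the sources used here. Of 22206 clusters 19572 carried 1 gene symbol and were tested, and 2634 carried none.

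The values were fitted by a model of 3 group means in limma 3.58.1 under R 4.3.3; all 9 arrays entered it and share 1 estimate of the spread, with empirical Bayes moderation (prior df 4.02). Adjustment of p-values followed Benjamini and Hochberg and covered all 19572 clusters. An exact permutation test of 3 against 3 cannot go below p = 0.1 and was not used. All 35 genes are described, with the values per array of those the results turn on. Of the other lists, the genes named have the lowest and the highest t, Cldn1 and Scnn1a among them. Snai1 was named outside that rule. Other names (Adam7, Cuzd1, Calml3, Lrp2 and Krt79 in VE among them) were chosen after their values were seen. The genes and lists were chosen with earlier results of these data known. Alternatives were another prior, scaling, filter or threshold, a replicate block, array weights and leaving out arrays. Promoter windows and gene order are from RefSeq (GRCm38.p6), matched by symbol.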

Additional observations from a re-analysis of the deposited data

How the results depend on the processing

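Compared with wild type fat, the count of genes lower in ob/ob vehicle mice (23) ranged from 16 without empirical Bayes to 29 at the submitters' unadjusted threshold, and from 20 to 28 with each array left out. For VE (25) these ranges were 19 to 29 and 19 to 28. With the replicate number as a block the counts were 24 and 25, and 0 between VE and ob/ob vehicle; same-numbered arrays correlated by -0.0635 to 0.181 in their deviations, so the numbers were not taken to pair the mice. No gene was called higher, and none between the ob/ob groups, under any alternative run with limma. The median difference was −1.30 (ob/ob vehicle) and −1.45 (VE) without wild type arrays 1 and 2. With each array left out it ranged from −3.51 to −2.46 for ob/ob vehicle, from −3.66 to −2.48 for VE and from −0.17 to 0.025 between the ob/ob groups. Genes called in the report kept their direction under every alternative run; of 503 values for ob/ob vehicle 22 lost the call, and of 547 for VE 44 did.

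Genes that were not called changed sign as follows, and the cause was not tested. With array weights, VE minus wild type was 0.031 for Jup and −0.080 for Krt14. With quantile normalization Krt10 was 0.15 (ob/ob vehicle) and 0.050 (VE), and with median centring Krt10 was 0.057 (ob/ob vehicle) and Jup 0.02 (VE). Without wild type arrays 1 and 2, ob/ob vehicle minus wild type was 0 for Krt5, 0.05 for Krt10, 0.32 for Krt14 and 0.70 for St14, and VE minus wild type was 0.21 for Marveld2, 0.073 for Esrp2 and 0.88 for St14. With each array left out, ob/ob vehicle minus wild type ranged from −0.11 to 0.092 for Krt10, −0.37 to 0.28 for Jup and −0.56 to 0.19 for Krt14, and VE minus wild type from −0.34 to 0.42 for Jup and −0.20 to 0.55 for Krt14. The choice among several clusters of a gene could not be varied, since each of the 35 genes has 1. Most of the 35 genes are dim in ob/ob fat, which limits how far a further fall could be seen.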
